A study of Mus musculus with 6 samples.

Results

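The genes described here are 55 mouse genes of ER-associated degradation (ERAD) and of the proteasome, chosen by name from a table of 39179 genes. They were kept where the 6 libraries together held 30 or more counts, and 55 of 55 met that minimum. They comprise 20 genes of the ERAD machinery, 14 of the 20S core particle, 17 of the 19S cap and 4 of the alternative activator caps. Genes of the immunoproteasome were not included.

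RNA was measured by sequencing in differentiated cells grown from neural progenitors of the cerebral cortex of CD1 mouse embryos at day 13.5. One group of 3 libraries, GFP, came from cells that stably express green fluorescent protein, and the other group of 3, G392E-NS, from cells that stably express the G392E mutant of neuroserpin, a secreted serine protease inhibitor of neurons. The groups thus share the strain, the differentiation and the stable expression of an introduced protein, and cells with wild-type neuroserpin were not analysed here. The labels give neither the promoter that drives the proteins nor the number of clones. They also do not say whether replicates came from separate cultures, so the p-values reflect the spread among these libraries alone, and that spread may be technical.

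ERAD removes misfolded proteins from the endoplasmic reticulum (ER). Mannosidases trim the sugars of a misfolded glycoprotein, lectins pass it to a membrane ubiquitin ligase built around HRD1, derlins help it leave the ER, and the p97 ATPase pulls it into the cytosol. The proteasome then degrades it: the 19S cap recognises ubiquitin and unfolds the protein, and the 20S core, a stack of alpha and beta rings, cuts it into peptides. G392E neuroserpin is a mutant known to form polymers that are held in the ER, and it causes a familial encephalopathy with neuronal inclusion bodies. Some ERAD genes are known targets of the unfolded protein response, whose factors ATF6 and XBP1 act through the ER stress element. Proteasome genes are known targets of NRF1, encoded by Nfe2l1, which acts through antioxidant response elements.

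The promoters printed here hold matches to the elements known from those pathways, and their genes return in the count results. A promoter here is 250 bases before to 50 bases after a RefSeq transcription start (GRCm38.p6), and 44 of 55 genes were matched to one or more. In capitals in the first pair is the ER stress element, searched on both strands as CCAAT and CCACG with 9 bases between them, and in the last the antioxidant response core TGACNNNGC. The promoter of Syvn1, which encodes the HRD1 ligase, lies at chr19:6046326-6046625 on the plus strand and that of Derl3, a derlin, at chr10:75893148-75893447 on the plus strand. The promoter of Psmb5, a catalytic subunit of the 20S core, lies at chr14:54617946-54618245 on the minus strand. All 3 are printed 5′ to 3′ on the strand of the gene.
Syvn1: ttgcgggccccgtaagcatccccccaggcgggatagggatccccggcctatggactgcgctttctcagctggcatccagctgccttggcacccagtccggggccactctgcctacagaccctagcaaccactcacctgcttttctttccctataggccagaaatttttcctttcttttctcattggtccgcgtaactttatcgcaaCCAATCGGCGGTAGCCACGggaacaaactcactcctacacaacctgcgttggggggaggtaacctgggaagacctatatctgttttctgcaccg
Derl3: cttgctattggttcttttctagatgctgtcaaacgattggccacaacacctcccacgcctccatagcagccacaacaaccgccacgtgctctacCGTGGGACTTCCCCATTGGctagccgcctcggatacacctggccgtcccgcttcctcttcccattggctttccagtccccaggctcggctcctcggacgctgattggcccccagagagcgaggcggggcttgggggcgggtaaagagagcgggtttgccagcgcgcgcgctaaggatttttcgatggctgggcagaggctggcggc
Psmb5: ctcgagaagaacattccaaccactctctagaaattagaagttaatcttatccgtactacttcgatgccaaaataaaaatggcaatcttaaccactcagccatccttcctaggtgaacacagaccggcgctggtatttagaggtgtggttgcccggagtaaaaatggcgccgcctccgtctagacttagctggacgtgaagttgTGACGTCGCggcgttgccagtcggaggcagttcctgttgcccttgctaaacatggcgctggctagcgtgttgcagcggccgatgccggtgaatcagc

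The ER stress element of Syvn1 lay 44 to 26 bases before the start. That of Derl3 lay 156 to 138 bases before the start and read on the opposite strand, so that its capitals show the reverse complement. Both genes belong to ERAD: 2 of 15 ERAD genes held the element, 0 of 25 genes of the 20S core and 19S cap did, and 0.119% of 32851 promoters did. Members are counted here by gene, and 4 of them have 2 promoters, whereas the share over all is by promoter. A second form of the element, ATTGG and CCACG with 1 base between them, was found in no member and in 0.0365% of all promoters. The core of the unfolded protein response element, TGACGTGG, was found in Ube2j1 and Vcp, 2 of 15 ERAD genes, against 0.676% of all promoters. In each of the pair it overlapped a match to TGACNNNGC.

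The antioxidant response core in capitals in Psmb5 lay 47 to 39 bases before the start. TGACNNNGC was found in 4 of 25 genes of the 20S core and 19S cap (Psmb5, Psmb6, Psmc6 and Psmd12), in 4 of 15 ERAD genes, in Psme4 among the 4 activators and in 12.4% of all promoters. The related core TGAGNNNGC was found in 10 of 25 genes of the 20S core and 19S cap, in 6 of 15 ERAD genes, in 0 of 4 activators and in 17.6% of all promoters. CCAAT alone, which is contained in the ER stress element and was added after the data were seen, was found in 8 of 15 ERAD genes, in 10 of 25 genes of the 20S core and 19S cap and in 37.4% of all promoters. These matches are descriptions of letters in a window, not of bound sites.

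Libraries held 16958952 to 22936447 counts in the GFP group and 15507487 to 24835835 in the G392E-NS group. Of the 13775 genes tested 847 passed the test, 6.15%, with 660 of them higher in G392E-NS and 187 lower. Counts of the mouse neuroserpin gene Serpini1 were 4.20 to 5.17 CPM (counts scaled to library size) in GFP and 4.96 to 6.74 in G392E-NS, and the species of the expressed neuroserpin is not among the labels, so this gene does not check them. Markers of astrocytes summed to 2979 to 4111 CPM in GFP and 5569 to 8413 in G392E-NS, with 2 of 7 higher (Slc1a2 and Aldh1l1). Of 7 progenitor markers 1 was higher (Prom1) and 1 lower (Nes), of 7 markers of the oligodendrocyte lineage 2 were higher (Pdgfra and Mog), and of the 6 neuron and 7 cell cycle markers tested 0 passed. All 7 cell cycle markers tested were below 0, with a median log2 fold change of −1.31. Their errors were wide, with a median SE of 0.825 and a lowest edgeR adjusted p of 0.277. The sums over all 8 cell cycle markers were 49.2 to 98.4 CPM in GFP and 45.6 to 63.2 CPM in G392E-NS. The median log2 fold change was 0.27 for the neuron markers and 1.10 for the astrocyte markers. Without overlap between the groups, 5 of 7 astrocyte, 2 of 6 neuron and 2 of 7 oligodendrocyte lineage markers were higher. Of 7 progenitor markers 1 was higher and 1 lower in that way, and of the 7 cell cycle markers 0 were. The groups did not overlap in 28.6% of all genes tested, in either direction. Over the 6 libraries progenitor markers summed to 3786 to 4821 CPM and neuron markers to 3019 to 4179 CPM. Microglial markers summed to at most 0.351 CPM, with 2 of 7 at 0 in every library, mesenchymal markers to at most 3.48 CPM and endothelial markers to at most 1.23 CPM. In bulk RNA, fewer cells of a type and less RNA per cell cannot be told apart, and the part of these markers in the results was not tested.

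None of the 55 genes passed the test between the groups. By edgeR's quasi-likelihood test with Benjamini-Hochberg adjustment over all genes tested, 0 of 55 were called at an adjusted p of 0.05, against the 6.15% of all genes. At an unadjusted p under 0.05 by the same test there were 3 (Derl3, Psmc2 and Psme4), against 3090 of the 13775 genes tested. DESeq2 called 1, Psme4, against 1457 of 16253 genes, and limma-voom called 0, against 690 of 13775. Fold changes were small: the median log2 fold change of G392E-NS over GFP was −0.02 over the 55 genes, with 22 above 0 and 33 below, and its median size was 0.076. The balance of signs was not stable: 31 were above 0 without GFP replicate 3, 15 with total-count scaling and 10 with length and GC trends removed. All genes shifted too: with total-count scaling the median log2 fold change was −0.080 over the 55 genes and −0.067 over all genes. With trends removed it was −0.11 and −0.084. In the main fit the median size of the log2 fold change was 0.188 over all genes tested and 0.144 over the 7801 genes with a mean of 20 CPM or more.

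The intervals show which sizes of difference the libraries left possible. In 53 of 55 genes the 95% interval of the fold change lay inside 1.5-fold either way, and the exceptions were Derl3 and Psme4. Of all genes tested 52.4% had such an interval, and of those with a mean of 20 CPM or more 76.1% did. This number ranged from 50 to 53 over the edgeR alternatives, and at its lowest, without G392E-NS replicate 1, Derl2, Edem2 and Psmb3 were also outside. The values of the 3 GFP libraries and the 3 G392E-NS libraries did not overlap in 9 of 55 genes, 3 higher and 6 lower in G392E-NS, against 28.6% of all genes tested.

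**Figure D1:**
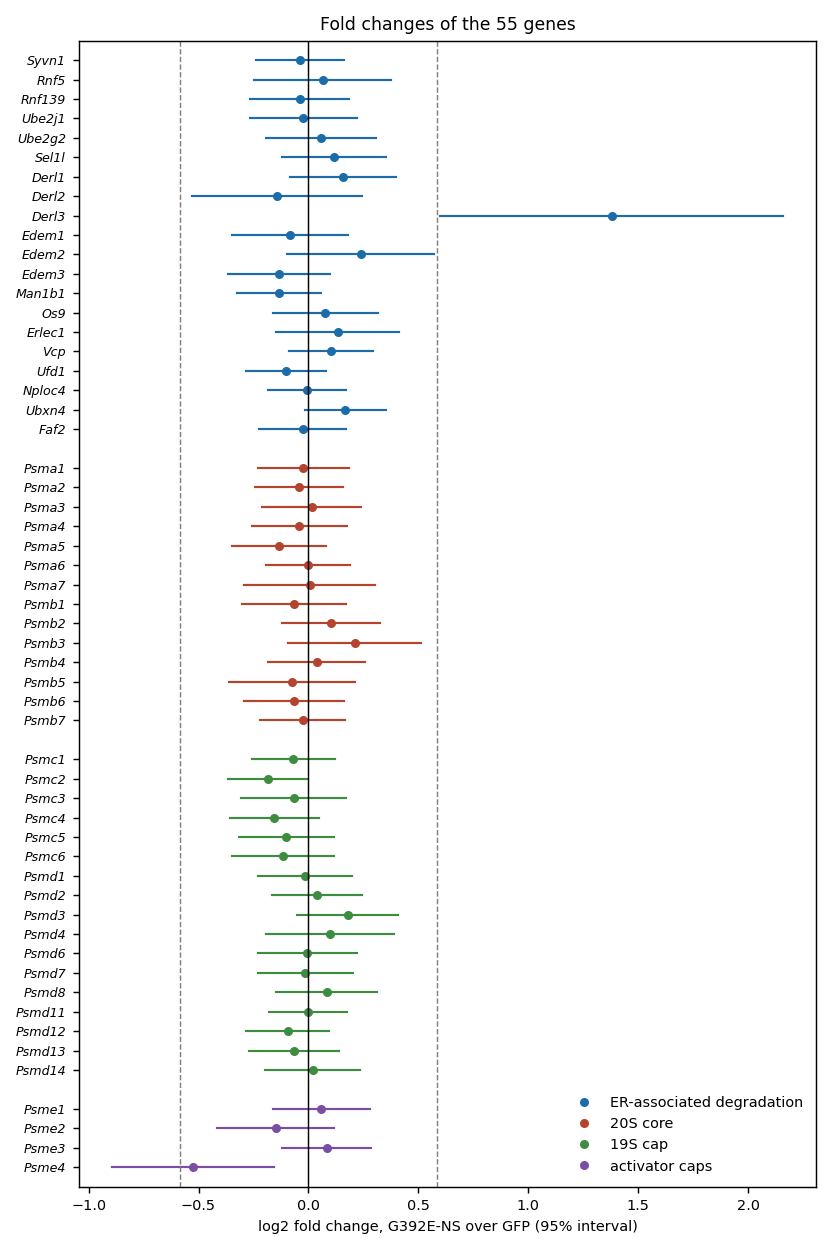
Log2 fold change of G392E-NS over GFP for each of the 55 genes (points) with its 95% interval (lines), 3 libraries in each group, ordered by role and coloured by group. The dashed lines mark 1.5-fold either way; 53 intervals lie between them, while Derl3 lies to the right and Psme4 reaches past the left line.

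The summed level of the ERAD genes was 2011, 1979 and 1978 CPM in the GFP libraries and 2034, 2056 and 2025 CPM in the G392E-NS libraries. The groups do not overlap, with means of 1989 ± 19.05 and 2038 ± 15.7 CPM (SD, n = 3), a ratio of 1.02. This direction turns with the scale: as TPM, which is counts per transcript length and not scaled by TMM factors, the sum was 1665, 1628 and 1612 in GFP and 1609, 1499 and 1578 in G392E-NS, lower without overlap, a ratio of 0.955. The median log2 fold change of the 20 genes was 0.02, with 10 genes above 0 and 10 below, and the median over all genes tested was −0.00469. In 5 of 20 genes the groups did not overlap, 3 higher and 2 lower, against 28.6% of all genes tested.

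Syvn1 encodes HRD1, the ubiquitin ligase at the centre of ERAD. Its level was 55.9, 56.4 and 57.6 CPM in GFP and 52.0, 54.9 and 58.5 CPM in G392E-NS. The groups overlapped, and the log2 fold change was −0.04 (SE 0.09, 95% interval −0.24 to 0.16, adjusted p = 0.830). The other ligases, Rnf5 and Rnf139, and the ubiquitin-conjugating enzymes Ube2j1 and Ube2g2 had log2 fold changes of −0.04 to 0.07. Their 5 intervals, with that of Syvn1, all lay inside 1.5-fold either way.

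Sel1l holds HRD1 in place and links it to the lectins. It stood at 318, 287 and 309 CPM in GFP and at 361, 306 and 323 CPM in G392E-NS. The highest library was G392E-NS replicate 1 and the groups overlapped, and the log2 fold change was 0.11 (SE 0.10, adjusted p = 0.545). Derl2, a derlin of the retrotranslocation channel, had the lowest fold change of the ERAD genes. Its values were 53.7, 46.6 and 46.7 CPM in GFP and 46.1, 53.4 and 33.2 CPM in G392E-NS. A single low library, G392E-NS replicate 3, stood apart from the other 5, and the log2 fold change was −0.14 (SE 0.17, 95% interval −0.53 to 0.24, adjusted p = 0.656). Exons of Derl2 overlap those of Mis12, whose log2 fold change was −0.33 (adjusted p = 0.235). Derl1, the related derlin, was at 0.16 on the log2 scale (SE 0.11), with adjusted p = 0.421.

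Derl3, whose promoter with the ER stress element is printed above, encodes the derlin with the lowest RNA level here. The gene lies at chr10:75893413-75895941 (GRCm38). Its counts were 4, 5 and 9 in the GFP libraries and 17, 21 and 11 in the G392E-NS libraries, or 0.230, 0.251 and 0.385 CPM against 0.707, 0.891 and 0.717 CPM. All 3 G392E-NS libraries lay above all 3 GFP libraries, and the means were 0.289 ± 0.0840 and 0.772 ± 0.103 CPM (SD, n = 3). The log2 fold change was 1.38 (SE 0.34, 95% interval 0.60 to 2.16, adjusted p = 0.0534), the largest of the 55 genes, and it did not pass. The low-count filter of this fit asks for a minimum level in 3 libraries. Derl3 met it only through G392E-NS, the group where it is higher, so its separation and fold change are not free of that filter. It was called in 0 of the 14 alternatives that tested it, with adjusted p from 0.0525 to 0.226 and log2 fold changes from 1.19 to 1.66. Syvn1, with the same element in its promoter, had the log2 fold change of −0.04 given above.

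Of the genes that trim or read sugars, Man1b1 had the smallest p. It encodes the ER mannosidase that starts the trimming. Its level was 174, 175 and 161 CPM in GFP and 159, 152 and 152 CPM in G392E-NS. The groups did not overlap, but only by the small step between GFP replicate 3 and G392E-NS replicate 1, and the log2 fold change was −0.14 (SE 0.08, adjusted p = 0.376). Os9 encodes a lectin that delivers trimmed glycoproteins to HRD1. It stood at 236, 235 and 228 CPM in GFP and 226, 234 and 277 CPM in G392E-NS. Only G392E-NS replicate 3 was high, and the log2 fold change was 0.08 (SE 0.10, adjusted p = 0.712). The mannosidase-like genes Edem1, Edem2 and Edem3 had log2 fold changes of −0.08, 0.24 and −0.13 and the lectin gene Erlec1 of 0.13, all with intervals inside 1.5-fold either way.

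Vcp encodes p97, the ATPase that pulls proteins out of the ER membrane. Its values were 220, 223 and 233 CPM in GFP and 240, 247 and 238 CPM in G392E-NS. The G392E-NS libraries all lay above the GFP libraries, by a log2 fold change of 0.10 (SE 0.08, 95% interval −0.09 to 0.29, adjusted p = 0.510). The near-identical Vcp-rs held 38.4% as many counts as Vcp, so reads may be divided between the pair. With both summed the groups overlapped, at 307, 311 and 325 CPM in GFP and 331, 344 and 319 CPM in G392E-NS, a ratio of 1.05 between the means, and the log2 fold change of Vcp-rs alone was 0.01.

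Ubxn4 encodes an ER membrane protein that recruits p97. It stood at 129, 129 and 131 CPM in GFP and at 140, 152 and 146 CPM in G392E-NS. The GFP libraries were nearly alike and all lay below the G392E-NS libraries, with a log2 fold change of 0.17 (SE 0.08, 95% interval −0.02 to 0.35, adjusted p = 0.263). Ufd1, which forms the p97 cofactor that binds ubiquitin together with Nploc4, was 88.8, 84.5 and 90.1 CPM in GFP and 82.1, 82.6 and 80.5 CPM in G392E-NS. Those groups did not overlap either, in the lower direction, and the log2 fold change was −0.10 (SE 0.08, adjusted p = 0.477). Its partner Nploc4 had a log2 fold change of −0.01 and Faf2, another p97 recruiter, of −0.03.

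**Figure D2:**
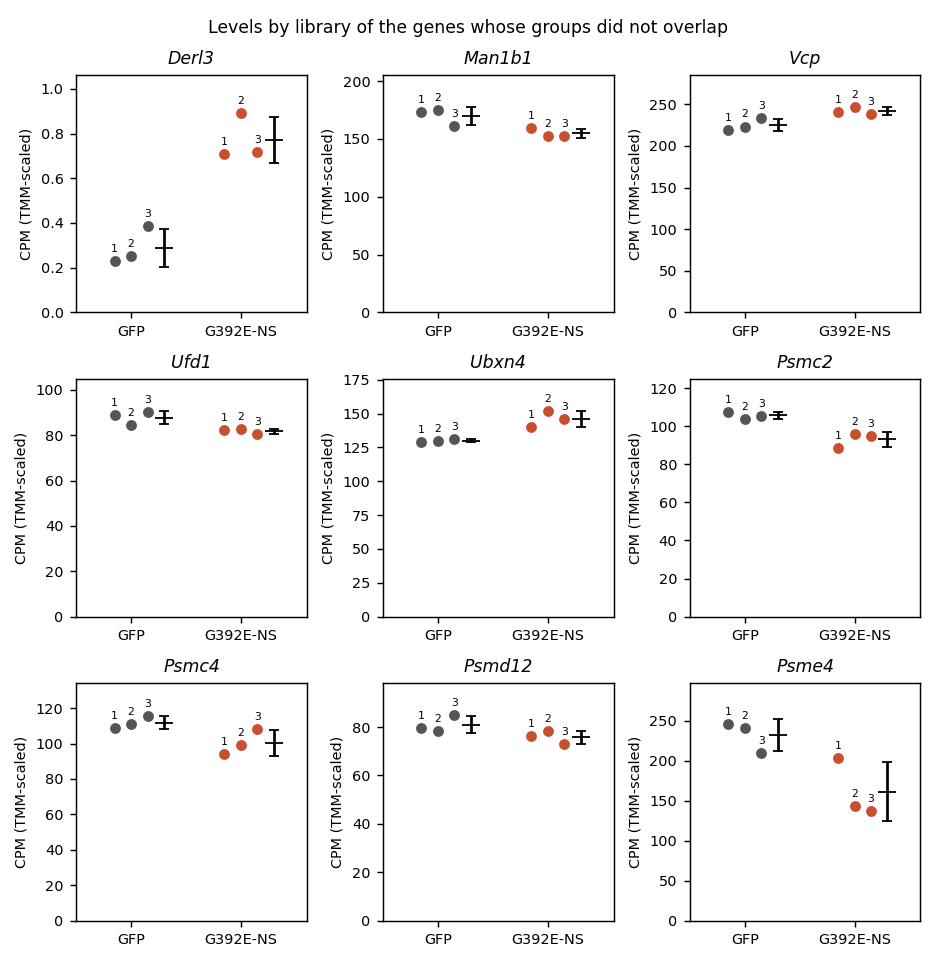
Level in CPM, scaled by TMM factors, of the 9 genes whose GFP and G392E-NS libraries did not overlap; points are libraries marked by replicate number, and bars show mean and SD of 3. Derl3, Ubxn4 and Vcp (without its near-identical copy Vcp-rs) are higher in G392E-NS and the other 6 lower; Derl3 lies below 1 CPM throughout, and Psme4 of G392E-NS replicate 1 lies close to GFP replicate 3.

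The summed level of the 20S core was 1512, 1563 and 1685 CPM in GFP and 1479, 1586 and 1655 CPM in G392E-NS. On this scale both groups covered nearly the same range, at 1587 ± 88.6 and 1574 ± 88.6 CPM (SD, n = 3), a ratio of 0.992. The sum in TPM overlapped too, but its ratio was 0.926. The median log2 fold change of the 14 genes was −0.02, with 5 above 0 and 9 below, and it changed sign to 0.02 without GFP replicate 3. In 0 of 14 genes were the groups without overlap, against 28.6% of all genes tested. All 14 intervals lay inside 1.5-fold either way, against 76.1% of genes with a mean of 20 CPM or more.

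The beta ring holds the cutting sites. Psmb5, whose promoter is printed above, encodes the subunit with chymotrypsin-like activity. Its level was 50.6, 56.2 and 59.1 CPM in GFP and 44.9, 52.6 and 60.1 CPM in G392E-NS. The lowest and the highest library were both G392E-NS, and the log2 fold change was −0.08 (SE 0.12, 95% interval −0.36 to 0.21, adjusted p = 0.761). Psmb6, the catalytic subunit with caspase-like activity, stood at 127, 130 and 142 CPM in GFP and 116, 127 and 139 CPM in G392E-NS. Its groups overlapped, and the log2 fold change was −0.07 (SE 0.10, adjusted p = 0.734). For Psmb7, which carries the trypsin-like activity, it was −0.03 (SE 0.08, adjusted p = 0.886).

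Psmb3 and Psmb2, structural beta subunits, had the highest fold changes of the core. Psmb3 was 50.7, 52.5 and 57.1 CPM in GFP and 55.1, 56.4 and 74.3 CPM in G392E-NS. Replicate 3 of G392E-NS stood above the other 5 libraries, and the log2 fold change was 0.21 (SE 0.13, 95% interval −0.09 to 0.51, adjusted p = 0.384). Psmb2 was 92.0, 96.0 and 104 CPM in GFP and 96.9, 103 and 114 CPM in G392E-NS. These values overlapped, and the log2 fold change was 0.10 (SE 0.10, adjusted p = 0.563). The remaining beta subunits, Psmb1 and Psmb4, had log2 fold changes of −0.07 and 0.04.

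The alpha ring forms the gated entrance of the core. Psma5 had its lowest fold change, with 69.9, 71.5 and 78.4 CPM in GFP and 66.0, 71.3 and 62.9 CPM in G392E-NS. G392E-NS replicate 2 lay among the GFP libraries, and the log2 fold change was −0.13 (SE 0.09, 95% interval −0.35 to 0.08, adjusted p = 0.429). Psma3, the alpha subunit of lowest level per transcript length, was 103, 106 and 114 CPM in GFP and 110, 118 and 97.6 CPM in G392E-NS. The groups overlapped, and the log2 fold change was 0.01 (SE 0.10, adjusted p = 0.951). The other 5 alpha genes had log2 fold changes from −0.04 to 0.01.

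Core genes shared their high and low libraries in the GFP group. Of the 3 GFP libraries, replicate 3 was the highest in 14 of 14 core genes and replicate 1 the lowest in 12. The same shares over all genes tested were not counted, so whether this order is particular to the core is not known. In the beta ring all 7 genes were lowest in replicate 1 and highest in replicate 3, in GFP and in G392E-NS alike. The alpha ring did not share this in G392E-NS, where replicate 2 was the highest in 5 of 7 genes and replicates 1 and 3 were each the lowest in 3. In the GFP group replicate 3 was also the highest in 15 of 17 genes of the 19S cap, and it was the highest in 9 of 20 ERAD genes. Replicate 3 had the most counts of the GFP libraries and the fewest of the G392E-NS libraries. The spread within groups was small all the same, with a median SD of log2 CPM of 0.106 over the core genes, 0.0988 over the cap genes and 0.140 over genes with a mean of 20 CPM or more.

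**Figure D3:**
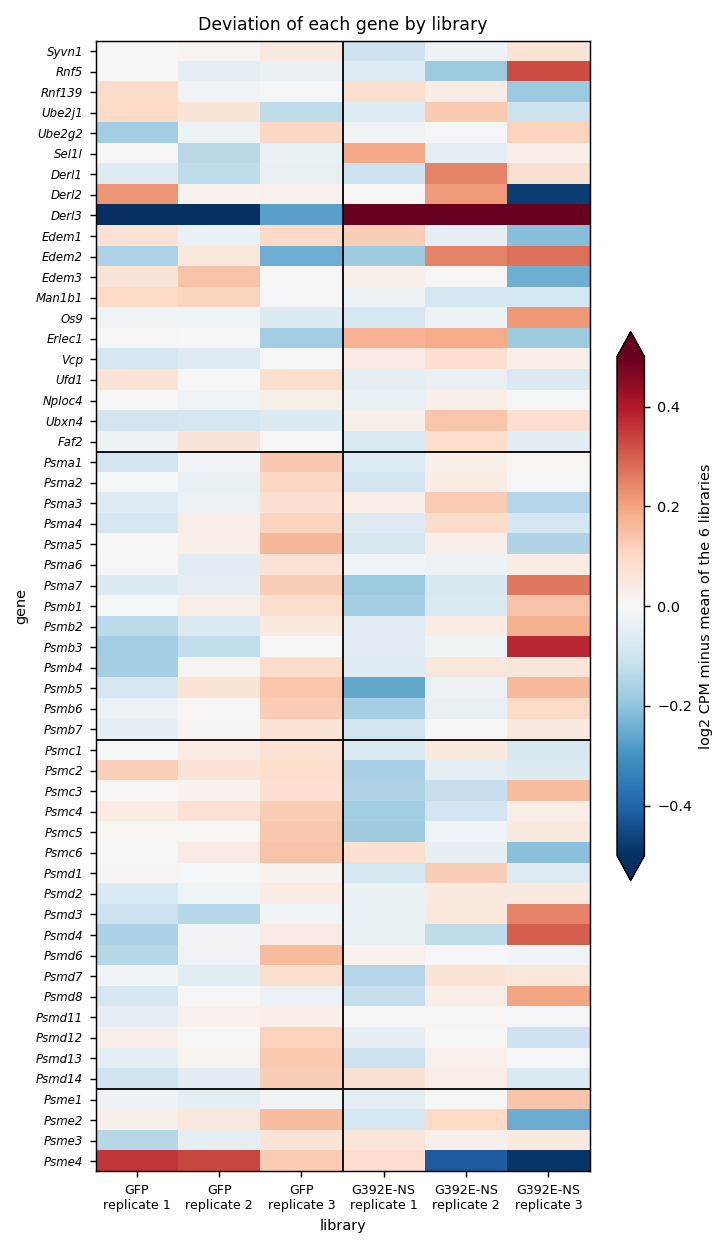
Log2 CPM of each of the 55 genes in each library minus the mean of the 6 libraries; rows are genes in order of role, black lines part the 4 gene groups and the 2 library groups, and the colour scale is cut at 0.5 either way. GFP replicate 3 is the highest GFP library in all 14 core genes, and Derl3 and Psme4 differ most between the library groups. How often GFP replicate 3 is the highest over all genes tested was not counted.

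The 19S cap summed to 2239, 2288 and 2412 CPM in GFP and 2194, 2311 and 2350 CPM in G392E-NS. The groups overlapped, at 2313 ± 89.3 and 2285 ± 81.5 CPM (SD, n = 3). In TPM they did not, with 3389, 3429 and 3608 in GFP and 3201, 3058 and 3283 in G392E-NS, a ratio of 0.915. TPM is not scaled by TMM factors, and the ratios in TPM were also below those in CPM for ERAD (0.955) and the core (0.926). The lower TPM sum is thus not particular to the cap. Of its 17 genes 5 had a fold change above 0 and 12 below, with a median log2 fold change of −0.02. In 3 of 17 (Psmc2, Psmc4 and Psmd12) the groups did not overlap, all in the lower direction, a share of 17.6% against 28.6% of all genes tested in either direction.

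The 6 ATPase subunits, Psmc1 to Psmc6, form the ring that unfolds proteins and opens the core. All 6 had log2 fold changes below 0, from −0.18 to −0.07 with a median of −0.11, and 0 of 6 passed the test. Their summed level was 731, 738 and 774 CPM in GFP and 670, 696 and 713 CPM in G392E-NS. The groups do not overlap, and the means of 748 ± 23.2 and 693 ± 21.7 CPM (SD, n = 3) have a ratio of 0.926. All 6 stayed below 0 in each of the 15 alternatives, which refit the same libraries, and their median there lay between −0.21 and −0.06. The −0.21 came with length and GC trends removed, a setting in which the median of all genes was −0.084. In the main fit 6985 of the 13775 genes tested were below 0. The 11 subunits of the cap that are no ATPases had 5 fold changes above 0 and 6 below, with a median of −0.00211.

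Psmc2 had the smallest p of the cap. It stood at 108, 104 and 105 CPM in GFP and at 88.7, 95.9 and 94.7 CPM in G392E-NS. Each GFP library lay above each G392E-NS library, with a log2 fold change of −0.18 (SE 0.08, 95% interval −0.37 to −0.00, adjusted p = 0.220). Psmc4 was 109, 111 and 116 CPM in GFP and 93.9, 99.1 and 108 CPM in G392E-NS. Here the highest G392E-NS library came close to the lowest GFP library, and the log2 fold change was −0.15 (SE 0.09, adjusted p = 0.343). With trends of transcript length and GC content removed, Psmc4 passed at −0.30 (edgeR adjusted p = 0.0468), a setting in which 3.29% of all genes were called lower.

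Of the other cap subunits, Psmd14 is the deubiquitinase that takes ubiquitin off proteins before they are degraded. Its values were 103, 106 and 120 CPM in GFP and 116, 112 and 104 CPM in G392E-NS. They overlapped fully, at a log2 fold change of 0.02 (SE 0.09, 95% interval −0.20 to 0.24, adjusted p = 0.931). Psmd3, a structural subunit of the lid, had the highest fold change of the cap. It stood at 122, 119 and 130 CPM in GFP and 128, 136 and 156 CPM in G392E-NS. Only the lowest G392E-NS library lay among the GFP values, and the log2 fold change was 0.18 (SE 0.10, 95% interval −0.05 to 0.41, adjusted p = 0.337).

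Psmd2 encodes the large scaffold subunit of the base that binds ubiquitin-like domains. It was 304, 315 and 328 CPM in GFP and 312, 330 and 330 CPM in G392E-NS, and the log2 fold change was 0.04 (SE 0.09, adjusted p = 0.843). Psmd11, a subunit of the lid, had the fold change nearest to 0, with 108, 112 and 113 CPM in GFP and 111, 111 and 110 CPM in G392E-NS. Its log2 fold change was −0.00 (SE 0.08, 95% interval −0.18 to 0.17, adjusted p = 0.991). A near-identical gene, A730017L22Rik, held 20.0% as many counts as Psmd11, and the ratio of the group means with both summed was 1.002. The log2 fold change of Psmd4, a ubiquitin receptor, was 0.10 (SE 0.13, adjusted p = 0.689). For the other subunits, Psmd1, Psmd6, Psmd7, Psmd8, Psmd12 and Psmd13, it ranged from −0.09 to 0.08.

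Psme4, an activator cap, had the lowest fold change of the 55 genes. It encodes PA200, a cap that binds the ends of the 20S core in place of the 19S cap and does not need ATP, and it lies at chr11:30771726-30880361 (GRCm38). Its level was 246, 241 and 209 CPM in GFP and 203, 144 and 137 CPM in G392E-NS. All GFP libraries lay above all G392E-NS libraries, though G392E-NS replicate 1 was far nearer to the GFP values than replicates 2 and 3 were. The means were 232 ± 19.9 and 161 ± 36.7 CPM (SD, n = 3), 1.44-fold higher in GFP (95% interval 1.12 to 1.86). The log2 fold change of −0.53 with an SE of 0.16 (adjusted p = 0.0984) did not pass the test.

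Whether Psme4 passed depended on the processing. It was called lower in 4 of 15 alternatives. By DESeq2 the adjusted p was 0.0324 (2.18% of all genes called lower), and with no filter on low counts it was 0.0248 by edgeR (1.61% called lower). Without G392E-NS replicate 1, the library nearest to GFP, the log2 fold change was −0.74 and the adjusted p 0.0123 by edgeR (2.81% called lower). With trends of length and GC content removed the adjusted p was 0.0441 by edgeR (3.29% called lower). Over the 15 alternatives the log2 fold change ranged from −0.74 to −0.42 and the adjusted p from 0.0123 to 0.284.

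PA28, the other activator cap, is built from Psme1 and Psme2 in the cytosol and from Psme3 in the nucleus. Psme1 was 31.3, 30.8 and 31.6 CPM in GFP and 30.9, 31.7 and 35.1 CPM in G392E-NS, and the log2 fold change was 0.06 (SE 0.10, adjusted p = 0.764). Psme2 was 31.2, 31.8 and 34.0 CPM in GFP and 28.8, 32.7 and 25.8 CPM in G392E-NS, and the log2 fold change was −0.15 (SE 0.12, adjusted p = 0.479). Both overlapped between the groups. Psme3 was 121, 129 and 139 CPM in GFP and 139, 135 and 137 CPM in G392E-NS, and the log2 fold change was 0.08 (SE 0.09, adjusted p = 0.618). The sum of the 4 activators was 429, 433 and 414 CPM in GFP and 402, 344 and 335 CPM in G392E-NS, without overlap. This separation rests on Psme4, whose means of 232 and 161 CPM lie further apart than those of the sum, 425 and 360 CPM. The median log2 fold change of the 4 genes was −0.05.

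Levels of different genes were compared as TPM, counts divided by the length of the principal transcript and scaled to library size. ERAD genes were far apart, with a median of 57.6 TPM over 20 genes and a span from 1.07 TPM for Derl3 to 264 TPM for Os9. Among the derlins Derl1 was at 70.5 TPM and Derl2 at 34.5 TPM, while Sel1l was at 137 TPM and Syvn1, its ligase partner, at 43.7 TPM. Vcp was the highest of the p97 genes at 191 TPM, and Edem1 the lowest of the sugar-trimming genes at 14.5 TPM. Counts of near-identical copies were not added to these levels. Vcp-rs held 38.4% as many counts as Vcp, so Vcp may be higher than given and its place below Os9 is not settled.

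Proteasome subunits lay closer together. The 14 core genes had a median of 232 TPM and ran from 103 TPM for Psma3 to 442 TPM for Psmb6, a range of 4.30-fold. The 17 cap genes had a median of 200 TPM and ran from 106 TPM for Psmd11 to 293 TPM for Psmd2, a range of 2.77-fold. A730017L22Rik, the near-identical copy of Psmd11, held 20.0% as many counts and was not added. The place of Psmd11 as the lowest, by either length, is thus not settled. The order depends on the transcript length used: with the length of all exons together, the extremes were Psmb3 at 99.8 TPM and Psma6 at 495 TPM in the core, and Psmd11 at 69.3 TPM and Psmc5 at 320 TPM in the cap. The mean cap subunit stood at 0.728 to 0.770 of the mean core subunit over the 6 libraries.

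Activator genes ran from 77.7 TPM for Psme1 to 136 TPM for Psme3, against the core median of 232 TPM. With the length of all exons Psme3 was at 180 TPM, above the core median of 170.1 TPM by that length. Psme4 stood at 41.5%, 39.3% and 31.6% of the mean core subunit in the GFP libraries and at 35.1%, 23.2% and 20.6% in the G392E-NS libraries. The groups overlapped on this scale, since G392E-NS replicate 1 lay above GFP replicate 3. Psme3 by the same measure ranged from 49.6% to 58.3% over the 6 libraries.

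**Figure D4:**
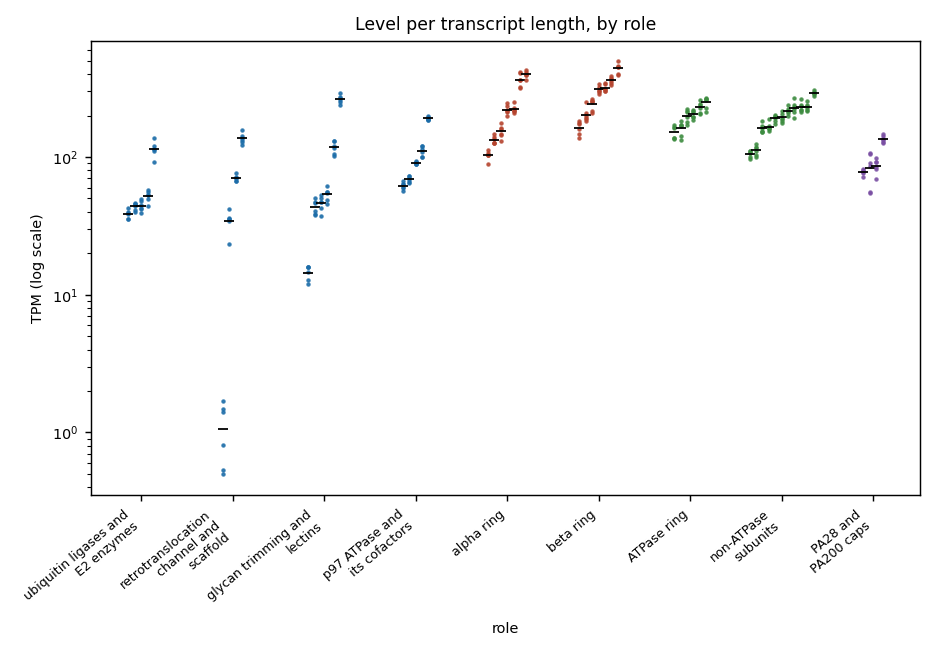
Level per transcript length in TPM, on a log axis, of the 55 genes by role; points are the 6 libraries and black bars their mean, with genes in rising order within a role. The 20S core genes (red) and 19S cap genes (green) lie between 103 and 442 TPM by mean, whereas ERAD genes (blue) run from 1.07 TPM for Derl3 to 264 TPM for Os9. Counts of near-identical copies, such as Vcp-rs, are not added.

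Genes around this machinery were described from 3 further lists. Of 46 other ERAD genes 2 passed the test, both higher in G392E-NS, against 6.15% of all genes tested, and the median log2 fold change was −0.02. Svip encodes a small protein that inhibits p97 in ERAD. Its level was 5.82, 4.67 and 5.09 CPM in GFP and 12.9, 14.2 and 8.28 CPM in G392E-NS, without overlap, and it rose by a log2 fold change of 1.19 with an SE of 0.23 (adjusted p = 0.0221). Man1a, a mannosidase that trims glycans in the secretory pathway, was 0.288, 0.201 and 0.684 CPM in GFP and 1.79, 3.10 and 1.5 CPM in G392E-NS, and rose by 2.39 (SE 0.48, adjusted p = 0.0269). Its counts were only 5, 4 and 16 in GFP and 43, 73 and 23 in G392E-NS. Man1a met the low-count filter, a minimum level in 3 libraries, through G392E-NS, where it is higher. Both calls were lost without GFP replicate 1 (Svip 0.0782, Man1a 0.120), GFP replicate 2 (0.0963 and 0.0994) or G392E-NS replicate 2 (0.0587 and 0.0639), and that of Svip also without GFP replicate 3 (0.0668), all as edgeR adjusted p.

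Of 29 tested genes for proteasome assembly, regulation and associated factors 0 passed by edgeR, and the median log2 fold change was −0.07. An unadjusted p under 0.05 was reached by 2 of them, against 3090 of the 13775 genes tested. The list holds Pomp, the chaperone of core assembly, at 103, 107 and 115 CPM in GFP and 88.6, 101 and 95.9 CPM in G392E-NS. Its groups did not overlap, and the log2 fold change was −0.18 (SE 0.09, adjusted p = 0.289). Nfe2l1, which encodes NRF1, was 230, 228 and 221 CPM in GFP and 214, 266 and 233 CPM in G392E-NS, and the log2 fold change was 0.07 (SE 0.10, adjusted p = 0.731).

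The list of unfolded protein response genes, which includes Sel1l and Edem1, had 22 genes tested, of which 0 were higher and 1 was lower against the same 6.15%, with a median log2 fold change of −0.15. The gene that passed, Trib3, a pseudokinase induced in amino acid and ER stress, was 2.13, 2.51 and 1.75 CPM in GFP and 0.499, 0.382 and 1.17 CPM in G392E-NS. It fell, with a log2 fold change of −1.71 (SE 0.41) and adjusted p = 0.0486. Its counts were 37, 50 and 41 in GFP and 12, 9 and 18 in G392E-NS. Trib3 met the low-count filter through GFP, where it is higher. Left out in turn, each of the 3 GFP libraries (0.158, 0.168 and 0.0740) and G392E-NS replicates 1 and 2 (0.0896 and 0.128) ended the call. Hspa5, the ER chaperone BiP, was 651, 588 and 709 CPM in GFP and 557, 579 and 447 CPM in G392E-NS. The groups did not overlap and the log2 fold change was −0.30 (SE 0.13, adjusted p = 0.238). Herpud1, which brings HRD1 complexes together and is a target of the same response, was 32.2, 29.6 and 35.9 CPM in GFP and 27.2, 25.3 and 27.3 CPM in G392E-NS, again without overlap, and the log2 fold change was −0.29 (SE 0.11, adjusted p = 0.158). It passed with length and GC trends removed, at −0.45 (edgeR adjusted p = 0.0468).

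Counting bears on some of the 55 genes. Near-identical copies of 9 genes are in the table, 14 copies in all, and apart from Vcp-rs and A730017L22Rik each held at most 0.170% as many counts as the gene itself. Exons of 17 genes overlap another gene in the table, and whether reads were counted by strand is not given in the sources used here. Psmd13, with a log2 fold change of −0.07, shares exon bases with Sirt3 (0.49, adjusted p = 0.0955), and Psmb7 shares some with Nek6 (0.70, adjusted p = 0.235).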

How the data were processed

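Libraries from 3 GFP and 3 G392E-NS samples were compared; the groups and replicate numbers are those of the labels. The deposited table holds raw counts per Ensembl gene, whole numbers that are not normalised, as the authors deposited them. The submitters' processing notes name HTSeq 0.6.1, TopHat2 2.0.12, DESeq2 1.4.5, R 3.2.2 and the build GRCm38, with no role for any; the annotation, strandedness of counting and filters were not given in the sources used here. Of 39179 genes 37693 were paired with a symbol by GENCODE M21. Replicates differed by 8.02 to 56.4 in chi-square per degree of freedom, so none was a duplicate.

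Genes were tested with edgeR 4.0.16 in R 4.3.3 (filterByExpr, which kept 13775 genes with 99.9% of counts; TMM factors; quasi-likelihood F test with no covariate; Benjamini-Hochberg adjustment over all genes tested; threshold 0.05). Log2 fold changes set G392E-NS over GFP; a standard error is the fold change divided by the square root of F, and 95% intervals from the t quantile. The biological coefficient of variation was 0.159. CPM values are scaled by TMM factors; TPM values use GENCODE principal transcripts. The main edgeR fit was tested on simulated data, and the other fits were not. Copies were found by BLAST (at least 95% identity over 300 bases). Fits were repeated with DESeq2 1.42.0, with limma-voom (limma 3.58.1), with total-count, RLE or upper-quartile scaling, with no low-count filter, with at least 1 CPM in 3 libraries, with a replicate block, with length and GC trends removed, and with each library left out; lengths of all exons were added after the data were seen.

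The members, the lists and the tests were chosen with earlier results of these data known. All 55 members are accounted for. Values per library are given in each group for the members with the smallest p (3, or 2 for the activators), with the highest and lowest fold change and with the highest and lowest TPM, for Syvn1, Sel1l, Vcp, Psmb5 and Psmd14 by role, and for called members of the other lists with Herpud1, Nfe2l1, Hspa5 and Pomp. Ufd1 and other members given with values outside this rule were added after their values were seen.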

Additional observations from a re-analysis of the deposited data

How the results depend on the processing

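Calls of the 55 genes changed in few settings: of the ERAD and 20S core genes 0 were called in any of the 15 alternatives, 1 of the 19S cap (Psmc4) passed with length and GC trends removed, and 1 activator (Psme4) passed by DESeq2, with no low-count filter, with those trends removed and in the range of 0 to 1 over left-out libraries. The number of all genes called was 847, against 1457 by DESeq2, 1579 with no low-count filter and 242 to 1373 with a library left out. Removing length and GC trends gave 616 higher and 453 lower genes, 57.6% higher against 77.9%. It moved the median log2 fold change from 0.025 to −0.091 for ERAD, from −0.016 to −0.11 for the 19S cap, from −0.046 to −0.21 for the activators and from −0.00469 to −0.084 for all genes. Total-count scaling gave −0.037, −0.080, −0.11 and −0.067 for the same. Left-out libraries gave 0.0042 to 0.032 for ERAD and −0.075 to −0.012 for the 19S cap, and a minimum of 1 CPM, which removes Derl3, gave −0.0069 for ERAD. The 20S core moved as well, from a median of −0.025 to −0.099 with trends removed and to −0.087 with total-count scaling. Over left-out libraries its median was −0.057 to 0.019. No member called in any setting changed sign; 28 of 55 changed sign in at least 1 alternative, called in none, and the largest size of log2 fold change among them was 0.14. Over all genes tested, same-numbered replicates did not deviate together (correlations from −0.383 to 0.0338 over 3 pairs). Deviations within a group of 3 libraries cancel out, so these correlations cannot tell whether the numbers pair the samples. With a replicate block 267 genes were called, 0 of the 55 among them, and Svip (adjusted p = 0.0747), Man1a (0.103) and Trib3 (0.139) were not, by edgeR. A gene as low as Derl3, at 4 to 21 counts a library, allows only a wide interval.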
